A study of Mus musculus with 22 samples.

Results

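This account describes the liver of wild-type male mice at 8 weeks of age against that at 4 weeks, chosen by the sample titles: 7 of the 22 RNA libraries of the series, with 3 livers at 4 weeks and 4 at 8 weeks. All 7 animals were labelled C57BL/6, male and wild type, the labels name no treatment, and each library was made from polyA RNA of whole liver. The rest of the series comprised wild-type livers at 20 months and livers of mice lacking Slc10a1, the hepatocyte transporter that takes up conjugated bile acids from blood, at 4 weeks, 8 weeks and 20 months. Values of 3 wild-type libraries at 20 months, 3 knockout libraries at 4 weeks and 6 at 8 weeks are set beside those of the comparison where they bear on it, without a test. The labels do not state litters or how animals were housed and fed. The p-values set the difference between groups against the spread between livers within them, and both may be partly technical. A Y-linked gene, Ddx3y, was at 56.9 CPM (counts divided by the TMM-scaled library size in megareads) or more in all 22 libraries of the series and the X-inactivation RNA Xist at 0.847 or less.

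At weaning the mouse liver leaves the fat-rich supply of milk, on which fatty acids are burned in mitochondria and peroxisomes and turned into ketone bodies. Between weaning and sexual maturity it takes up its adult work of making cholesterol, fat and bile acids from carbohydrate-rich chow. Over the same weeks the pulsed growth hormone secretion of males, acting through the receptor Ghr and the transcription factor STAT5, sets the male pattern of liver genes apart from the female one. Proliferation and blood formation, which belong to the fetal and newborn liver, have by then mostly ceased.

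Gene counts per library ranged from 5796319 to 6956124 reads at 4 weeks and from 18950112 to 26066897 at 8 weeks, so 3 reads, the upper limit that a count of 0 allows, corresponded to at most 0.518 CPM at 4 weeks and 0.158 at 8 weeks (counting error only). The names of the deposited tables mark the 4-week libraries as paired-end and the 8-week libraries as single-end, and carry 1 tag for the 4-week and 20-month libraries, the latter single-end, and another for the 8-week libraries. Age, read layout and tag therefore cannot be told apart between 4 and 8 weeks. Reads outside any gene made up 6.13% to 6.92% of all reads counted (in a gene, in none or in several) in the 4-week wild-type libraries, 15.4% to 17.8% in the 8-week ones and 7.0% to 8.53% at 20 months. The ranges over the knockout libraries were 7.76% to 9.65% (4 weeks), 13.9% to 17.0% (8 weeks) and 7.42% to 14.7% (20 months), and 1 of the last stood near the 8-week level. Long genes were higher and short genes lower at 8 weeks: the median log2 difference went from -0.63 in the shortest of 8 length classes (24 to 1714 exonic bases) to 0.68 in the longest (8888 bases and over). The knockout libraries of the same ages gave -0.44 to 0.67 and the wild-type libraries at 8 weeks against 20 months -0.51 to 0.69, whereas 20 months against 4 weeks gave 0.08 to -0.08, as the plot of the median difference by gene length shows. A second fit with each library's counts corrected for its smooth trend with gene length is called the length-corrected fit. Its value is given wherever it changes a call or moves a fold change or a list's count by more than 1.5 times.

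**Figure D1:**
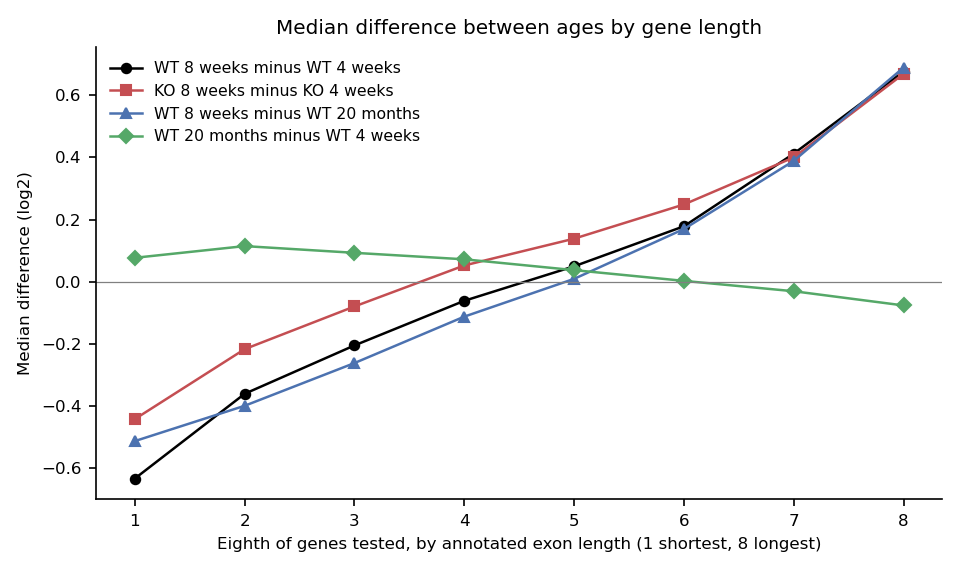
Median log2 difference (y axis) of the 14003 genes tested, in 8 classes of annotated exon length from shortest to longest (x axis), for 4 pairs of groups (1 line each). The 3 lines that involve the 8-week libraries climb with length, from -0.63 to 0.68 for the wild types, and the line of 20 months against 4 weeks stays between -0.08 and 0.11.

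In a principal component analysis the first component (72.9%) set the ages apart and the second (11.5%) set replicate 1 at 4 weeks apart from the other 6 libraries. Counts over gene lists are therefore also given without that library where they differ by more than 1.5 times. Albumin (Alb), the main secreted product of hepatocytes, held 103918, 119666 and 103525 CPM at 4 weeks and 52203, 54729, 62658 and 56164 CPM at 8 weeks. Of 26 markers of pancreas, adipose tissue and muscle 12 had no read in any of the 7 libraries, the defining pancreatic genes Prss1, Cpa1 and Pnlip and the muscle gene Acta1 among them. The summed level of that list was 199 to 815 CPM at 4 weeks and 824 to 1994 CPM at 8 weeks, at least 78.9% of it in each library from Car3 (157, 768 and 733 against 1434, 1233, 1973 and 804 CPM), a carbonic anhydrase that hepatocytes also express. In whole liver, fewer cells of a type and less RNA per cell cannot be told apart.

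Of 14003 genes tested with edgeR's quasi-likelihood test, 3850 were higher at 8 weeks (27.5%) and 3599 lower (25.7%) at a Benjamini-Hochberg adjusted p under 0.05. Among the 12491 protein-coding genes, 3316 rose (26.5%) and 3274 fell (26.2%), with a median log2 fold change of 0.02. In either direction 7449 of the genes tested changed (53.2%) and 6590 of the protein-coding ones (52.8%). At least 2-fold, 1825 genes rose (13%) and 1368 fell (9.77%), 1327 (10.6%) and 1101 (8.81%) of them protein-coding. All changes are given as log2 fold changes, 8 weeks over 4 weeks. These percentages are the background against which the counts of list members are read. In the length-corrected fit 19.4% of protein-coding genes rose and 24.9% fell. Of the 7449 genes called, 5040 were also called in the same direction in it and 91 were called in the opposite direction. In a fit of all 22 libraries, whose spread includes that of the knockout and 20-month livers, 2102 protein-coding genes rose and 2248 fell. The plot of list members called shows where each group of liver functions stood.

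**Figure D2:**
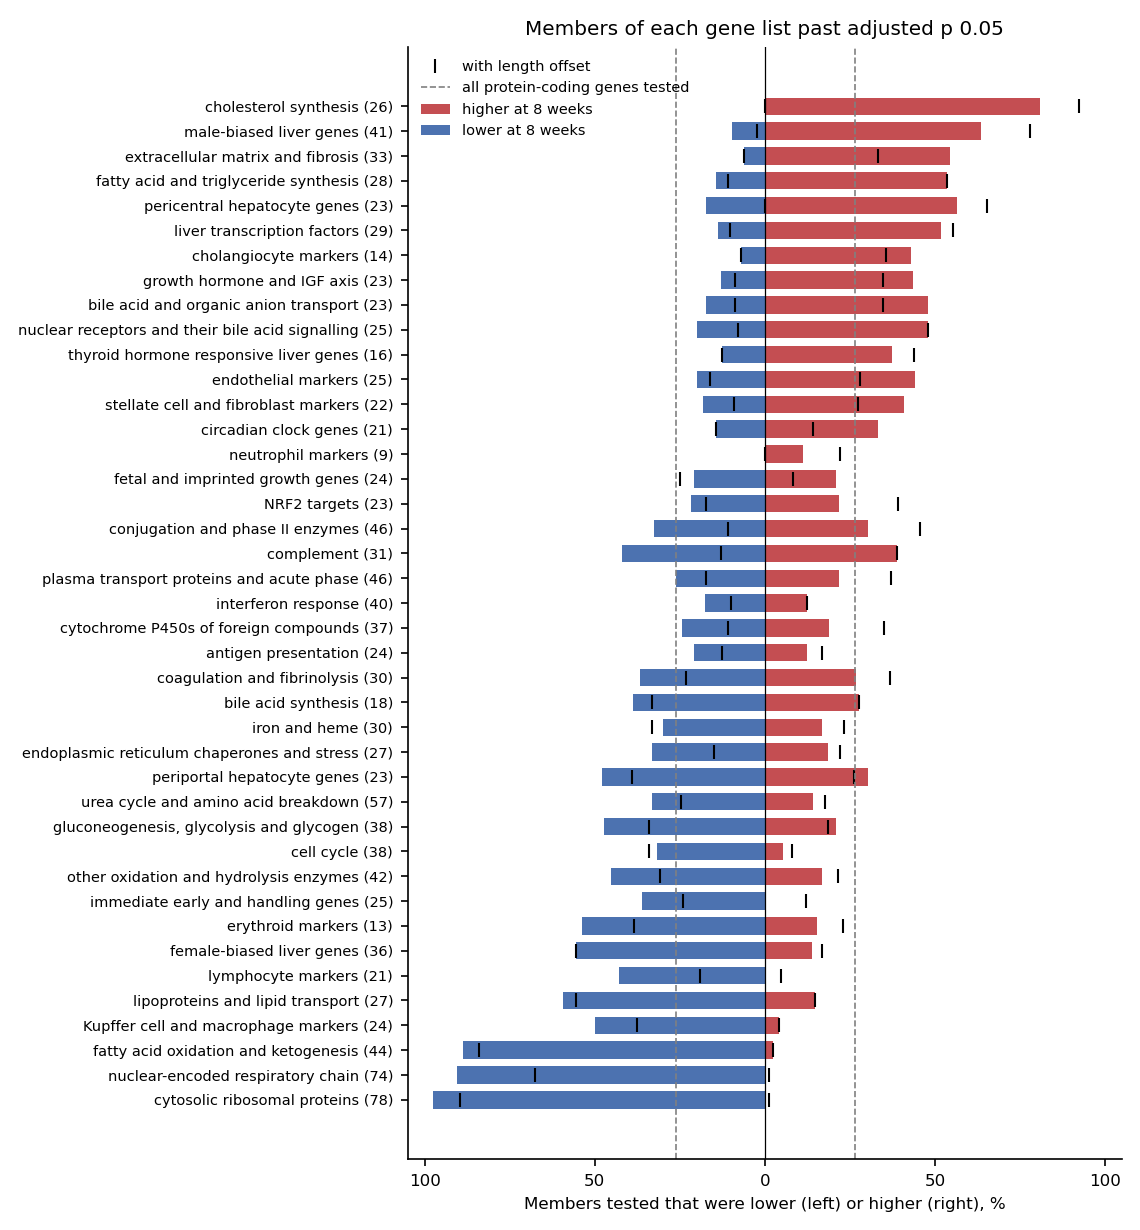
Share of tested members (x axis, %) of each gene list (y axis, number tested in parentheses) that were higher (right, red) or lower (left, blue) at 8 weeks at adjusted p under 0.05. Black ticks give the same from the length-corrected fit and dashed lines the shares over all protein-coding genes, 26.5% and 26.2%; cholesterol synthesis lies at the top, and ribosomal proteins, the respiratory chain and fatty acid oxidation at the bottom.

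Most genes of fatty acid oxidation and ketogenesis were lower at 8 weeks. Of 44 members tested, 39 fell and 1 rose, with a median log2 fold change of -1.36 (length-corrected fit 37 fell, 1 rose; fit of 22 libraries 27 fell, 0 rose). Cyp4a14, an omega-hydroxylase of fatty acids and a classical target of the receptor PPAR-alpha (chr4:115486200-115496142, GRCm38), stood at 14690, 6148 and 6702 CPM in the 3 livers at 4 weeks and at 17.1, 87.5, 54.6 and 184 CPM in the 4 at 8 weeks. The groups were far apart (log2 fold change -6.75, SE 0.74, adjusted p = 4.42e-05), with the highest value in replicate 1 at 4 weeks. Its relatives Cyp4a10 (4706, 2655 and 2472 against 69.2, 299, 195 and 360.3 CPM) and Cyp4a31 (220.0, 209 and 284 against 12.2, 15.5, 10.2 and 17.7 CPM) followed with log2 fold changes of -3.83 and -4.09. These near relatives share sequence, and how reads that fit several of them were counted is not known.

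Ehhadh, the bifunctional enzyme of peroxisomal beta-oxidation, had 4852, 1412 and 1788 CPM at 4 weeks and 168, 189, 223 and 219 CPM at 8 weeks (log2 fold change -3.74, SE 0.38, adjusted p = 2.62e-05). Replicate 1 at 4 weeks was again the highest, and every 4-week liver exceeded every 8-week liver. Acadm, the medium-chain acyl-CoA dehydrogenase of mitochondria, had 1045, 824 and 872 CPM at 4 weeks and 235, 246, 252 and 264 CPM at 8 weeks, with little spread in either group (log2 fold change -1.87, SE 0.11, adjusted p = 9.52e-07). Hadha, a subunit of the mitochondrial trifunctional protein named after its value was seen, fell by 1.35 on the log2 scale. Acot1, a cytosolic acyl-CoA thioesterase, and Vnn1, a pantetheinase, fell with log2 fold changes of -3.40 and -3.23, the former from 243, 149 and 196 CPM to 9.54, 22.8, 17.8 and 24.3 CPM. Fgf21, the hepatic hormone of fasting, had 7.13, 3.19 and 2.87 CPM against 0.172, 0.593, 0.344 and 0.515 CPM (log2 fold change -3.42, SE 0.45, adjusted p = 0.000152; -2.58 after length correction).

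Few members departed from this. Cd36, a fatty acid uptake protein, was the member that rose (36.8, 29.8 and 37.7 against 52.3, 41.1, 49.7 and 49.6 CPM, log2 fold change 0.48, SE 0.12, adjusted p = 0.00788). Cpt1a, which lets fatty acids into mitochondria, had 779, 731 and 785 CPM against 666, 739, 749 and 776 CPM and did not pass (log2 fold change -0.06, adjusted p = 0.646); in the length-corrected fit it was lower (-0.45, adjusted p = 0.00402). Ppara itself, named after its value was seen, was higher at 8 weeks (144, 133 and 134 against 219, 283, 298 and 285 CPM, log2 fold change 0.99; 1.05 in the length-corrected fit, adjusted p = 7.99e-05). In the other libraries, Cyp4a14 was at 8.98 to 504 CPM in wild-type livers at 20 months, 1264 to 6872 CPM in knockout livers at 4 weeks and 109 to 1589 CPM in knockout livers at 8 weeks. The mean log2 CPM over the 44 members was 7.95 to 8.34 in 4-week, 6.38 to 6.76 in 8-week and 5.89 to 7.34 in 20-month wild types.

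**Figure D3:**
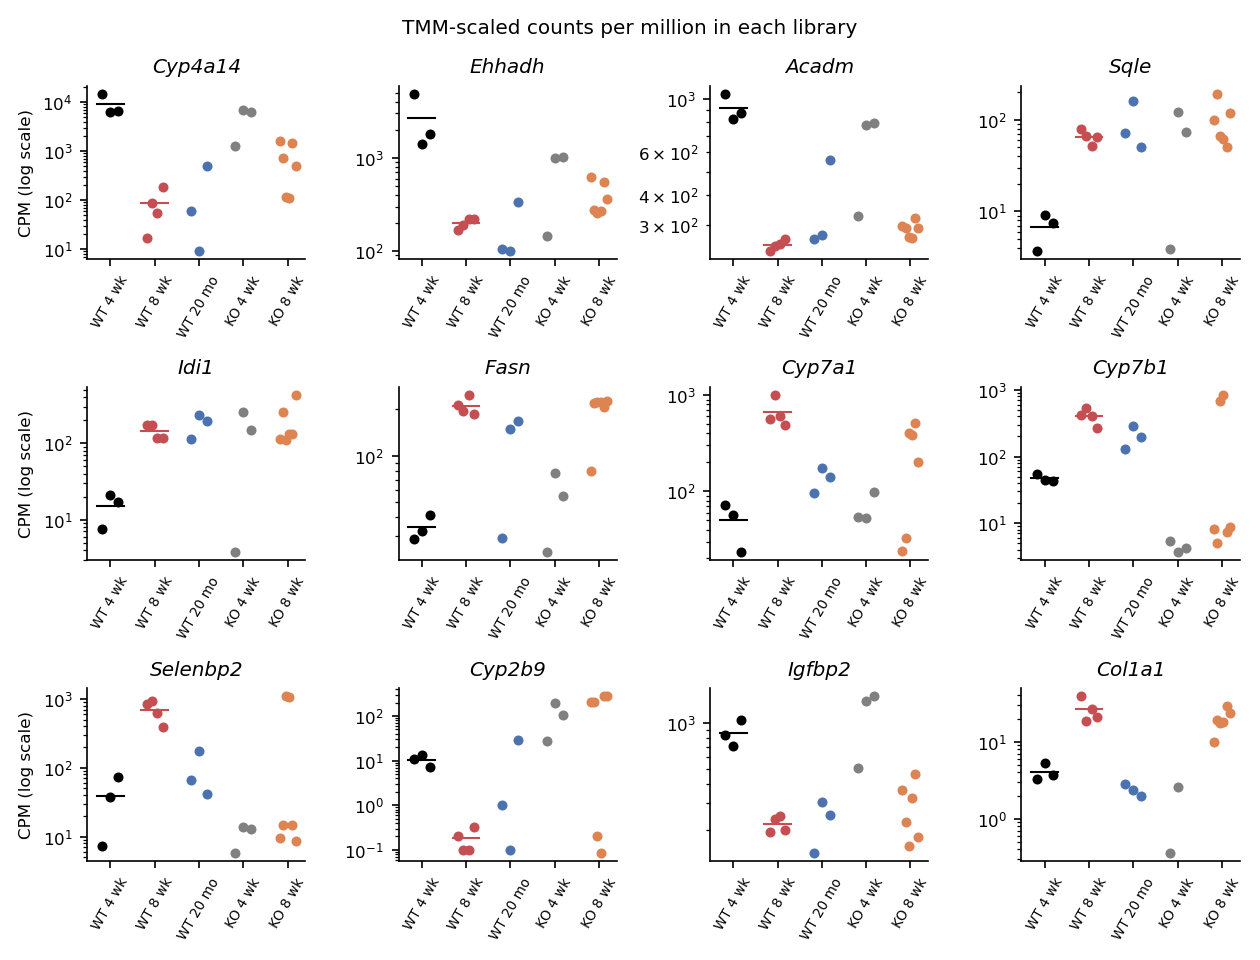
CPM on a log axis for 12 genes (1 panel each) in every wild-type library at 4 weeks (black), 8 weeks (red) and 20 months (blue) and every knockout library at 4 weeks (grey) and 8 weeks (orange); horizontal lines are means of the 2 groups compared, and values of 0 are not drawn. Cyp4a14, Ehhadh, Acadm, Cyp2b9 and Igfbp2 are lower at 8 than at 4 weeks in the wild types, with Cyp4a14 at 17.1, 87.5, 54.6 and 184 CPM at 8 weeks, and the other panels are higher, with Sqle at 80.2, 66.3, 51.4 and 64.5 CPM.

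Cholesterol synthesis moved the other way. Of 26 members, 21 rose and 0 fell, with a median log2 fold change of 1.27 (length-corrected fit 24 rose, fit of 22 libraries 14 rose). Sqle, squalene epoxidase, a rate-limiting enzyme of the pathway (chr15:59315077-59331192), had 3.66, 9.03 and 7.5 CPM at 4 weeks and 80.2, 66.3, 51.4 and 64.5 CPM at 8 weeks (log2 fold change 3.28, SE 0.26, adjusted p = 5.36e-06). Idi1, the isomerase that makes dimethylallyl diphosphate, had 7.51, 20.9 and 17.2 CPM against 171, 173, 116 and 116 CPM (log2 fold change 3.24, SE 0.31, adjusted p = 1.75e-05). In both, replicate 1 was the lowest of the wild-type 4-week livers, and none of these reached the 8-week range. The sterol-ring enzymes Nsdhl, Dhcr7 and Cyp51 rose with log2 fold changes of 2.62, 2.29 and 2.21. In wild-type livers at 20 months Sqle was at 50.9 to 161 CPM and Idi1 at 112 to 234 CPM. Knockout livers at 4 weeks had 3.91, 121 and 74.3 CPM of Sqle and 3.73, 259 and 150 CPM of Idi1. Replicates 2 and 3 of these thus lay within or above the wild-type 8-week range. Knockout livers at 8 weeks had 49.9 to 192 CPM of Sqle and 112 to 429 CPM of Idi1.

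Enzymes of this pathway are switched on by SREBP2 through sterol regulatory elements in their promoters, which are often written with the letters TCACNCCAC. These letters were searched after the values were seen. On either strand, in RefSeq promoter windows of 300 bases (250 before to 50 after the start, GRCm38.p6), they occurred in 1 of 18 members with a window and in 1.5% of 10312 tested genes (1.22% of windows). The member was Hmgcs1, the synthase at the start of the pathway, with 108, 51.0 and 50.6 CPM at 4 weeks and 221, 188, 139.5 and 153 CPM at 8 weeks (log2 fold change 1.34, SE 0.28, adjusted p = 0.00256). The 250 bases before its start (chr13:119690101-119690350, plus strand) are shown, with the match in capitals, as the stretch of the list's promoters that holds these letters.
Hmgcs1: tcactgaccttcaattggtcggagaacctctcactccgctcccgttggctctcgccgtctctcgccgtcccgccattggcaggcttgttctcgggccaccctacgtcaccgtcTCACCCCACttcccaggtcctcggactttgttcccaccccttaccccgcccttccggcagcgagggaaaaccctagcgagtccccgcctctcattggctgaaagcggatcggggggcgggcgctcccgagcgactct
No match says only that these letters are not in the window, and a match is a description of the sequence.

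Among genes of fatty acid and triglyceride synthesis 15 of 28 members rose and 4 fell, with a median log2 fold change of 0.74 (fit of 22 libraries 9 and 1). Scd1, the desaturase that makes oleate, had 406, 662 and 953 CPM against 3861, 4656, 6965 and 8533 CPM (log2 fold change 3.15, SE 0.36, adjusted p = 5.48e-05). Fasn, fatty acid synthase, had 28.9, 32.4 and 41.5 CPM against 211, 194, 247 and 186 CPM, and Acaca, which commits acetyl-CoA to fat, 39.5, 38.4 and 40.2 CPM against 133, 149, 203 and 151 CPM. Their log2 fold changes were 2.62 and 2.02, and 1.96 and 1.06 in the length-corrected fit. Srebf1, the regulator of these genes, and Thrsp, a lipogenic cofactor, were named after their values were seen. Srebf1 rose by 2.51, and Thrsp stood at 3.08, 81.1 and 64.2 CPM at 4 weeks, far lower in replicate 1 than in the other two, and at 222, 225, 233 and 238 CPM at 8 weeks. The members that fell were Insig2, a brake on SREBP processing (943, 264 and 249 against 87.4, 65.9, 69.8 and 125 CPM, log2 fold change -2.47), Khk, Dgat1 and Agpat2 (log2 fold change -0.60, -0.57 and -0.33, the last named after its value was seen). Khk, the enzyme of fructose entry, lost its call without replicate 2 or 3 at 4 weeks and in the length-corrected fit (-0.07, adjusted p = 0.773). Agpat2 lost its call without replicate 1 at 4 weeks, without replicate 2 or 4 at 8 weeks and in the length-corrected fit (0.09, adjusted p = 0.552).

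Genes with a male bias in adult liver were mostly higher at 8 weeks and those with a female bias mostly lower. Of 41 male-biased genes 26 rose and 4 fell (median 1.23), and of 36 female-biased genes 5 rose and 20 fell (median -1.27). In the length-corrected fit 32 male-biased genes rose and 1 fell. In the fit of 22 libraries 5 male-biased genes rose and 0 fell, 8 female-biased genes fell and 2 rose, and Cyp7b1, Moxd1, C6, Susd4 and the urinary protein genes called here lost their calls. Cyp7b1, an oxysterol 7-alpha-hydroxylase (chr3:18071950-18243338), had 53.8, 44.3 and 43.3 CPM at 4 weeks and 427, 531, 412 and 267 CPM at 8 weeks (log2 fold change 3.13, SE 0.23, adjusted p = 3.58e-06). Selenbp2, a selenium-binding protein near-identical in sequence to Selenbp1, had 7.32, 37.0 and 72.5 CPM against 830.4, 931, 627 and 387 CPM (log2 fold change 4.15, SE 0.63, adjusted p = 0.000372). Moxd1, a monooxygenase-like protein (chr10:24223517-24302790), had no read in any liver at 4 weeks and 43.5, 56.3, 3.09 and 44.2 CPM at 8 weeks. Against a floor of 3 counts over the 3 livers together (0.175 CPM), its mean of 36.8 ± 23.2 CPM (SD, n = 4) was at least 209.6-fold higher. Replicate 3 at 8 weeks was far below the other three. C6, a complement component, and Susd4, a complement inhibitor, rose with log2 fold changes of 2.41 and 1.78.

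The major urinary proteins are pheromone carriers made by male liver from a cluster of near-identical genes. Their values are uncertain individually, because how reads that fit several copies were counted is not known. Mup11 had 67.6, 55.8 and 88.4 CPM against 1076, 1270, 541 and 461 CPM (log2 fold change 3.58, SE 0.39, adjusted p = 4.54e-05; 4.17 after length correction), and replicates 3 and 4 at 8 weeks had the lower values of their group. Mup9, Mup4, Mup18 and Mup16 rose with log2 fold changes of 4.52, 4.51, 3.60 and 3.28 (5.15, 5.38, 4.46 and 4.09 in the length-corrected fit), again with the same livers low. Mup2, Mup8 and Mup3 (the last named after its value was seen) were lower, with log2 fold changes of -1.49, -1.78 and -0.43. The length-corrected fit gave -0.80 for Mup2, -0.94 for Mup8 (adjusted p = 0.0704) and a rise of 0.37 for Mup3 (adjusted p = 0.0365), which also lost its call without replicate 2 at 4 weeks. Mup20, the male aggression pheromone, did not pass (708, 1068 and 1168 against 1965, 2263, 1205 and 1023 CPM, log2 fold change 0.73, adjusted p = 0.0571; 1.60 in the length-corrected fit, adjusted p = 0.00153). Not all male-biased genes were low at 4 weeks. Cyp2d9 was already at 1062, 1085 and 1266 CPM and was lower at 8 weeks (782, 822, 851 and 709 CPM, log2 fold change -0.52; length-corrected fit -0.23, adjusted p = 0.12). Slco1a1, a steroid sulfate and organic anion carrier, had 411, 836 and 831 CPM against 565, 756, 828 and 767 CPM, and the steroid dehydrogenase Hsd3b5 8.29, 120.5 and 159 against 110.3, 156, 137 and 86.5 CPM, with replicate 1 far below the other livers at 4 weeks. Neither passed (adjusted p = 0.803 and 0.664). The log2 fold change of Hsd3b5 was 0.35, and 0.97 in the length-corrected fit (adjusted p = 0.235).

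Among female-biased genes, Cyp2b9, a steroid hydroxylase (chr7:26173411-26210661), had 11, 13.3 and 7.18 CPM at 4 weeks and 0.207, 0.0988, 0.0981 and 0.317 CPM at 8 weeks (log2 fold change -5.73, SE 0.36, adjusted p = 1.45e-06). Cyp2a22 had 17.1, 22 and 17.4 CPM against 0.586, 0.445, 1.23 and 0.515 CPM (log2 fold change -4.77). Sult1e1, estrogen sulfotransferase, was low at both ages (1.35, 4.25 and 2.08 against 0.655, 0.346, 0.638 and 0.872 CPM, log2 fold change -2.0, SE 0.43, adjusted p = 0.00323; -1.28 after length correction). Cyp2a4 and Cyp2c40, named after their values were seen, fell by 2.84 and 2.39. The fatty acid hydroxylases Cyp4a10 and Cyp4a14 are on both this list and that of fatty acid oxidation. Of the 5 that rose, Cyp3a44 had 1.54, 3.01 and 0.319 CPM against 20.9, 20.9, 21.3 and 16.6 CPM (log2 fold change 3.65 with SE 0.37, adjusted p = 2.5e-05), and Ntrk2, Papss2, Hamp2 and Atp6v0d2 (the last named after its value was seen) had log2 fold changes of 2.19, 0.89, 0.99 and 1.05. Cyp3a44 was at 0.74 to 1.33 CPM in wild types at 20 months and at 13.3 to 54.9 CPM in knockouts at 8 weeks. The part of the tag in its rise was not tested. Ntrk2 was at most 1.03 CPM and lost its call without replicate 1 or 3 at 4 weeks and in the length-corrected fit (1.17, adjusted p = 0.226). Hamp2 (length-corrected 2.07) lost its call without replicate 2 or 3 at 4 weeks or 3 or 4 at 8 weeks, and Atp6v0d2 without replicate 2 or 3 at 4 weeks or 1 or 4 at 8 weeks. The knockout libraries at 8 weeks fell apart for both kinds of gene, with Cyp7b1 at 679 and 844 CPM and Cyp2b9 at 0.208 and 0.0831 CPM in replicates 3 and 4, and Cyp7b1 at 5.00 to 8.6 CPM and Cyp2b9 at 207.7 to 283 CPM in the other 4. Knockout livers at 4 weeks had 3.64 to 5.33 CPM of Cyp7b1 and 27.7 to 198 CPM of Cyp2b9.

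The letters TTCNNNGAA, which STAT5 binds and which read the same on both strands, occurred in the windows of 2 of 30 male-biased genes, 4 of 26 female-biased genes and 8.36% of 10312 tested genes (6.91% of windows). Shown with the matches in capitals are the 250 bases before the start of both male-biased genes that hold the letters, Moxd1 (chr10:24223267-24223516, plus strand) and Keg1 (chr19:12695540-12695789, plus strand), and of A1bg (chr15:60921271-60921520, minus strand), 1 of the 4 female-biased genes beside Fmo2, Slc22a26 and Hamp2, from RefSeq, GRCm38.p6.
Moxd1: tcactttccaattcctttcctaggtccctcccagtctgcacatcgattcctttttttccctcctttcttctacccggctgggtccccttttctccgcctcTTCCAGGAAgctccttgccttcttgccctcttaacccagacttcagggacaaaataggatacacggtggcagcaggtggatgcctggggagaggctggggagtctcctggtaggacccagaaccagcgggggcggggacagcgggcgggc
Keg1: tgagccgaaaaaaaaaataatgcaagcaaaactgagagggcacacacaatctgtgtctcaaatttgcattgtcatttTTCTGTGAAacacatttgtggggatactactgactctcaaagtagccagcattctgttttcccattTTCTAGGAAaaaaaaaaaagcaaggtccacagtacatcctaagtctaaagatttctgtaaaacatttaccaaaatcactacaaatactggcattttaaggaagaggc
A1bg: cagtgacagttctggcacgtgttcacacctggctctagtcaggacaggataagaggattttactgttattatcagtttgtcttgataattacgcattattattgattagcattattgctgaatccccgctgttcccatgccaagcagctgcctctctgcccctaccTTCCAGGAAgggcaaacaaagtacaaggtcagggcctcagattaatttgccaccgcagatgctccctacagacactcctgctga
Keg1, a glycine acyltransferase-like gene, rose from 44.1, 70.3 and 64.3 CPM to 118, 170.1, 143 and 111 CPM (log2 fold change 1.19), and A1bg, a plasma glycoprotein, fell from 1.73, 0.709 and 0.958 CPM to 0.0689, 0.198, 0.0491 and 0.159 CPM (log2 fold change -3.17). Both were named because of the letters, after their values were seen.

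In the growth hormone and insulin-like growth factor axis, 10 of 23 members rose and 3 fell. The falls were in the binding proteins of insulin-like growth factors. Igfbp2 had 838, 706 and 1050 CPM against 194, 237, 248 and 202 CPM (log2 fold change -1.97, SE 0.15, adjusted p = 4.53e-06), Igfbp3 fell by 0.85, and Igfbp1, an insulin- and fasting-sensitive member, had 348, 416 and 465 CPM against 58.5, 68.8, 65.2 and 268 CPM (log2 fold change -1.83, SE 0.48, adjusted p = 0.00917; length-corrected fit -1.22, adjusted p = 0.06). Replicate 4 at 8 weeks was far above the other three for Igfbp1. The insulin receptor Insr, the clearance receptor Igf2r and the adaptor Irs1 rose by 1.56, 1.42 and 1.65 on the log2 scale, and by 0.75, 0.88 and 1.13 in the length-corrected fit. Igf1, the circulating growth factor, had 592, 642 and 498 CPM against 676, 870.2, 790.2 and 1000 CPM (log2 fold change 0.54 with SE 0.14, adjusted p = 0.0106), and the receptor Ghr 355, 506 and 486 CPM against 650.0, 642, 712 and 650.3 CPM (log2 fold change 0.57, SE 0.13, adjusted p = 0.0052). Both calls ended in the length-corrected fit, with log2 fold changes of -0.04 (adjusted p = 0.837) and 0.05 (adjusted p = 0.787). Igfals, which holds Igf1 in plasma, and Socs2, a feedback inhibitor of growth hormone signalling, did not pass (log2 fold change 0.30 and 0.53, adjusted p = 0.248 and 0.38). Among genes of the growth hormone axis the fit of 22 libraries called 8 higher and 1 lower.

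Cyp7a1, the rate-limiting enzyme of bile acid synthesis (chr4:6265612-6275633), was among the 15 largest rises, from 72.5, 56.3 and 23.1 CPM to 564, 1006, 606 and 494 CPM (log2 fold change 3.73, SE 0.40, adjusted p = 3.85e-05). At 20 months it was at 96.1 to 175 CPM. Of 18 genes of bile acid synthesis 5 rose and 7 fell. Cyp2c70, which makes the muricholic acids of mice, had 56.3, 81.5 and 154 CPM against 393, 595, 534 and 444 CPM (log2 fold change 2.34 with SE 0.31, adjusted p = 0.00016), and Cyp27a1 of the alternative pathway rose by 0.63. Cyp39a1, a 24-hydroxycholesterol hydroxylase, had 179.8, 216 and 183 CPM against 29.9, 45.0, 33.4 and 48.9 CPM (log2 fold change -2.29 with SE 0.16, adjusted p = 3.13e-06), and Hsd17b6 and Acot8 fell by 1.88 (length-corrected log2 fold change -1.27) and 1.18. Cyp8b1, which sets the share of cholic acid, did not pass (522, 126 and 139 against 254, 314, 414 and 237 CPM, adjusted p = 0.697) and was higher at 8 weeks without replicate 1 at 4 weeks (1.21, adjusted p = 0.00121). Without replicate 2 at 4 weeks, or 2, 3 or 4 at 8 weeks, 3 genes of bile acid synthesis rose. Among bile acid synthesis genes the fit of 22 libraries called 3 higher and 2 lower.

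Among transporters, 11 of 23 rose and 4 fell (8 and 2 in the length-corrected fit). Abcb11, the bile salt export pump, had 394, 189.9 and 269 CPM against 557, 639.8, 503 and 566 CPM (log2 fold change 1.00 with SE 0.21, adjusted p = 0.00286), and Atp8b1, a flippase of the bile canaliculus, rose by 1.53. Slc10a1, the uptake transporter deleted in the knockout arm of the series, had 612, 708 and 679 CPM against 437, 450.4, 464 and 466 CPM in the wild types (log2 fold change -0.55, SE 0.09, adjusted p = 0.000864), and its call ended in the length-corrected fit (-0.14, adjusted p = 0.246). Abcb4, the phospholipid exporter, fell by 0.53. Among transporters the fit of 22 libraries called 5 higher and 0 lower.

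Enzymes for foreign compounds moved in both directions. Of 37 cytochrome P450s 7 rose and 9 fell, shares below those over all protein-coding genes (26.5% and 26.2%). In the length-corrected fit 13 rose and 4 fell, against 19.4% and 24.9% of all protein-coding genes. Cyp1a2, which oxidizes caffeine and aromatic amines, had 104, 310.5 and 281 CPM against 839, 966, 833 and 612 CPM (log2 fold change 1.82, SE 0.33, adjusted p = 0.00121). Cyp2f2, a naphthalene-activating enzyme, rose by 1.11, and Cyp2c68 and Cyp2a12 fell by 1.51 and 0.86. Cyp2e1, the ethanol-oxidizing enzyme, had 7552, 13571 and 12424 CPM against 6051, 6886, 6719 and 7184 CPM (log2 fold change -0.73; length-corrected fit -0.31, adjusted p = 0.2). Cyp3a11, the main drug-metabolizing enzyme of its family, had 7040, 777 and 568 CPM at 4 weeks and 1826, 2198, 2165 and 1704 CPM at 8 weeks, so that 1 liver at 4 weeks lay above all others and the other two below them. It did not pass (log2 fold change -0.49, adjusted p = 0.58), and without replicate 1 it was higher at 8 weeks (1.56, adjusted p = 5.92e-05). Among cytochrome P450s the fit of 22 libraries called 3 higher and 5 lower.

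Of 46 conjugation enzymes 14 rose and 15 fell, against 26.5% and 26.2% of all protein-coding genes. In the length-corrected fit 21 rose and 5 fell, against 19.4% and 24.9%. Gstm3, a glutathione transferase, had 3.47, 1.95 and 3.67 CPM against 25.8, 23.5, 22.5 and 22.1 CPM (log2 fold change 2.96, SE 0.19, adjusted p = 1.71e-06; 3.65 after length correction). Ugt1a1, which conjugates bilirubin and shares its last exons with the other Ugt1a genes, rose by 1.04, and the glutathione transferases Gsto1 and Gstk1 fell by 1.08 and 0.65, the latter with -0.02 in the length-corrected fit (adjusted p = 0.895). Of 42 other oxidases and hydrolases 7 rose and 19 fell. Aox3, an aldehyde oxidase, had 202, 181 and 198 CPM against 998, 961, 944 and 612 CPM (log2 fold change 2.19, SE 0.18, adjusted p = 7.5e-06), the carboxylesterase Ces2c rose by 3.60, and the epoxide hydrolase Ephx2 and the carbonyl reductase Cbr1 fell by 1.17 and 1.82. Among 23 NRF2 targets 5 rose and 5 fell (9 and 4 in the length-corrected fit). Among conjugation enzymes the fit of 22 libraries called 5 higher and 4 lower, among other oxidases and hydrolases 3 and 9 and among NRF2 targets 3 and 2.

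Of 29 liver transcription factors 15 rose and 4 fell. Onecut2, Nfia and Nfib, regulators of hepatocyte differentiation, rose by 2.0, 1.92 and 1.89, and by 1.07, 1.27 and 1.02 in the length-corrected fit. Onecut1, named after its value was seen, had 0.771, 5.31 and 3.67 CPM against 46.2, 17.1, 19.7 and 39.3 CPM. Atf5, a stress factor abundant in liver, had 500.4, 229.7 and 374 CPM against 67.4, 78.7, 82.5 and 95.1 CPM (log2 fold change -2.18, SE 0.22, adjusted p = 2.84e-05). Among 25 nuclear receptors and partners 12 rose and 5 fell (12 and 2 in the length-corrected fit). Esr1, the estrogen receptor, named after its value was seen, rose by 2.21 (1.41 after length correction). The thyroid hormone receptor Thrb and the dioxin receptor Ahr rose by 1.27 and 1.46. Wild types had 24.6 to 30.8 and 27.1 to 40.3 CPM of them at 4 weeks and 22.45 to 28.5 and 32.4 to 41.1 CPM at 20 months. Nr0b2, the repressor of bile acid synthesis known as SHP, had 6.55, 10.3 and 11.8 CPM against 2.96, 3.51, 4.22 and 4.79 CPM (log2 fold change -1.31, SE 0.23, adjusted p = 0.00099; length-corrected fit -0.54, adjusted p = 0.0772). Among liver transcription factors the fit of 22 libraries called 10 higher and 1 lower and among nuclear receptors and partners 8 and 1.

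Of 27 lipoprotein and lipid transport genes 16 fell and 4 rose. Those that rose were Apob, the core protein of very low density lipoprotein (5765, 5419 and 4931 against 16303, 16747, 16312 and 17324 CPM, log2 fold change 1.64, SE 0.13, adjusted p = 4.52e-06), the receptor Lrp1, the cholesterol exporter Abca1 and Sort1, a sorting receptor named after its value was seen, with log2 fold changes of 2.29, 1.47 and 1.61 (1.29, 0.86 and 1.23 in the length-corrected fit). Apoa2 had 8466, 9178 and 9886 CPM against 2369, 2643, 2831 and 2753 CPM (log2 fold change -1.79 with SE 0.12, adjusted p = 2.11e-06), and Apoc1 fell by 1.53. Gene length differs within this list, and the length-corrected fold changes of Apob, Apoa2 and Apoc1 were 0.82, -0.67 and -0.56. At 20 months Apob was at 1949 to 3073 CPM and Apoa2 at 5696 to 17208 CPM, so that for both genes the 8-week values lay outside the range of the other ages. Apoa4, an apolipoprotein of fasting and fat feeding, had 997, 83.8 and 119 CPM against 43.1, 33.5, 38.6 and 51.2 CPM (log2 fold change -3.25, SE 0.72, adjusted p = 0.00352).

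Of 46 plasma transport and acute phase proteins 10 rose and 12 fell (17 and 8 in the length-corrected fit; 6 and 13 without replicate 1 at 4 weeks). Alb fell by 0.94 (-0.58 in the length-corrected fit). Rbp4, the retinol carrier, and Ahsg, fetuin A, fell by 1.63 (length-corrected log2 fold change -0.95) and 1.55. The protease inhibitors Mug2 and Pzp rose by 1.48 and 0.79. Saa1, an acute phase protein, had 102, 228 and 400.0 CPM against 939.6, 1110, 51.2 and 1365 CPM, with replicate 3 at 8 weeks below every 4-week liver, and did not pass (log2 fold change 1.83, adjusted p = 0.0897). Saa1 was called when that liver was left out. Among 30 coagulation genes 8 rose and 11 fell (11 and 7 in the length-corrected fit). Ggcx, the vitamin K-dependent carboxylase that activates clotting factors, had 22.2, 21.8 and 15.5 CPM against 76.1, 82.7, 79.3 and 65.4 CPM (log2 fold change 1.95, SE 0.15, adjusted p = 3.96e-06), while protein C (Proc) and factor X (F10) fell by 1.24 and 0.80. Among 31 complement genes 12 rose and 13 fell (12 and 4 in the length-corrected fit), and Cfb and Masp1 rose by 1.62 and 1.5, while Mbl1, a lectin of the pathway, fell (log2 fold change -1.15; -0.55 after length correction). Hamp, the iron hormone hepcidin, had 188, 318 and 89.9 CPM against 285, 299.6, 423 and 426 CPM and did not pass (log2 fold change 0.86, adjusted p = 0.0588; 2.07 in the length-corrected fit, adjusted p = 0.00161). With the 50 most abundant genes left out, so that fewer members were tested, 5 plasma proteins fell. Among plasma proteins the fit of 22 libraries called 5 higher and 6 lower, among coagulation genes 5 and 5 and among complement genes 8 and 8.

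In gluconeogenesis, glycolysis and glycogen metabolism 18 of 38 genes fell and 8 rose. G6pc, which releases glucose from the hepatocyte, had 817, 736 and 464 CPM against 290.0, 286, 397 and 438 CPM (log2 fold change -0.93 with SE 0.21, adjusted p = 0.00396), and Ldha, lactate dehydrogenase, 1873, 1223 and 1521 CPM against 486, 439, 368 and 571 CPM (log2 fold change -1.72, SE 0.18, adjusted p = 3.06e-05). The glucose transporter Slc2a2 had 133, 204 and 223 CPM against 467, 492, 526 and 443 CPM (log2 fold change 1.37 with SE 0.17, adjusted p = 0.000101), and the glycogen phosphorylase Pygl rose by 0.89. Pck1, the entry enzyme of gluconeogenesis, fell by 0.43 (-0.30 in the length-corrected fit, adjusted p = 0.0638). Of 57 genes of the urea cycle and amino acid breakdown 19 fell and 8 rose. Tdo2, which opens the tryptophan ring, had 7563, 8165 and 7571 CPM against 2519, 2468, 2295 and 2720 CPM (log2 fold change -1.63 with SE 0.11, adjusted p = 2.67e-06), and Ahcy and Arg1 fell by 2.06 and 0.99. Cps1, the first enzyme of the urea cycle, rose by 0.46, a call that ended in the length-corrected fit (0.29, adjusted p = 0.13) and without replicate 2 or 3 at 4 weeks or 2 or 4 at 8 weeks. Among glucose and glycogen genes the fit of 22 libraries called 6 higher and 7 lower and among genes of the urea cycle and amino acid breakdown 1 and 7.

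Genes of pericentral hepatocytes, which surround the central vein and depend on Wnt signals, were more often higher (13 of 23) than lower (4), and those of periportal hepatocytes more often lower (11 of 23) than higher (7). In the length-corrected fit the counts were 15 higher and 0 lower for pericentral and 6 higher and 9 lower for periportal genes. The glutamate transporter Slc1a2 had 103, 165 and 155 CPM against 502, 495, 449 and 585 CPM (log2 fold change 1.85, SE 0.17, adjusted p = 1.49e-05; 1.07 after length correction), and the Wnt feedback gene Znrf3 rose by 1.45. The Wnt target Lgr5 and the glutamine synthetase gene Glul, named after their values were seen, rose by 2.08 (1.48 after length correction) and 0.69. Cyp2e1, also on the pericentral list, was lower (log2 fold change -0.73, length-corrected fit -0.31, adjusted p = 0.2) and held at least 51.7% of the list's counts. The summed level of the pericentral list was 11040 to 18128.5 CPM at 4 weeks and 11700.5 to 13018 CPM at 8 weeks. For the periportal list it was 123776 to 141387 CPM and 70519 to 81734 CPM, at least 73.0% of it from Alb. On the periportal side Hsd17b13, a lipid droplet protein, had 1002, 751 and 791 CPM against 232, 245, 231 and 247 CPM (log2 fold change -1.82 with SE 0.12, adjusted p = 1.6e-06), and Pigr, the carrier of immunoglobulin A into bile, rose by 0.85. Among pericentral hepatocyte genes the fit of 22 libraries called 8 higher and 2 lower and among periportal hepatocyte genes 2 and 5.

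Of 38 cell cycle genes 12 fell and 2 rose, against 26.2% of all protein-coding genes that fell, and 6 fell with the 8-week counts thinned to the 4-week depth. Cdk1 had 5.20, 6.02 and 4.15 CPM against 1.41, 1.24, 1.52 and 1.39 CPM (log2 fold change -1.87 with SE 0.22, adjusted p = 6.49e-05) and Pcna, the sliding clamp of DNA replication, 32.0, 36.5 and 39.6 CPM against 12.4, 10.5, 11.3 and 12 CPM (log2 fold change -1.63, SE 0.11, adjusted p = 2.65e-06). Pcna was at 24.4 to 29.4 CPM in wild types at 20 months and at 11.1 to 18.55 CPM in knockouts at 8 weeks. In knockouts the list's median log2 difference, 8 weeks over 4 weeks, was 0.62. Of the 12 genes that fell in wild types, 4 had a lower mean at 8 weeks in knockouts. Mki67 and Top2a, the usual markers of dividing cells, did not pass (7.13, 7.97 and 7.66 against 10.6, 5.49, 9.42 and 6.93 CPM for Mki67, adjusted p = 0.736 and 0.976). The log2 fold change of Mki67 was 0.11, and -0.48 in the length-corrected fit (adjusted p = 0.139). Ccnd1 and Rrm2 rose by 1.26 and 1.18. Cdkn1a, the cell cycle inhibitor p21, was among the 15 largest falls (172, 37.0 and 30.2 against 2.86, 3.51, 2.70 and 8.48 CPM, log2 fold change -4.16, SE 0.63, adjusted p = 0.000373), with replicate 1 the highest liver at 4 weeks. In the list of fetal and imprinted growth genes 5 of 24 rose and 5 fell (2 and 6 in the length-corrected fit). H19, an imprinted RNA, fell from 0.771, 1.95 and 3.35 CPM to 0.413, 0.198, 0.245 and 0.396 CPM (log2 fold change -2.65), and the imprinted zinc finger gene Peg3 fell by 2.44 (length-corrected log2 fold change -3.21). Afp, the fetal albumin homologue, was low at both ages (1.35, 0.709 and 0.798 against 2.14, 1.48, 1.77 and 1.43 CPM) and did not pass (log2 fold change 0.87, adjusted p = 0.0601; length-corrected fit 1.00, adjusted p = 0.0383). Igf2, the fetal growth factor, did not pass the filter on low counts. Among cell cycle genes the fit of 22 libraries called 1 higher and 4 lower and among fetal and imprinted growth genes 3 and 3.

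Markers of other liver cells moved in different directions. Of 24 Kupffer cell and macrophage markers 12 fell and 1 rose. Clec4f, a Kupffer cell lectin, had 185, 216 and 234 CPM against 125, 118, 110.3 and 125 CPM (log2 fold change -0.82 with SE 0.10, adjusted p = 0.000113) and Cd5l 240.3, 226 and 268 CPM against 140.2, 104, 89.5 and 122 CPM (log2 fold change -1.09, SE 0.15, adjusted p = 0.000197), while Mpeg1, a pore-forming protein of macrophages, rose by 1.14. The summed level of the list was 1232 to 1398 CPM at 4 weeks and 838 to 1199 CPM at 8 weeks. Of 21 lymphocyte markers 9 fell and 0 rose, and 4 fell and 1 rose in the length-corrected fit, with a summed level of 60.6 to 60.8 CPM against 41.2 to 84.9 CPM. Of 25 endothelial markers 11 rose and 5 fell (7 rose in the length-corrected fit), with the scavenger receptor Stab2 at 63.4, 64.1 and 73.3 CPM against 110.5, 121, 125 and 119.6 CPM (log2 fold change 0.83 with SE 0.09, adjusted p = 4.45e-05) and Clec4g, a lectin of the same sinusoidal cells, at 72.5, 71.9 and 93.1 CPM against 32.0, 32.7, 31.6 and 42.1 CPM (log2 fold change -1.19, SE 0.13, adjusted p = 4.76e-05). Of 13 erythroid markers 7 fell and 2 rose, and the adult globins Hba-a1 and Hbb-bs, each with near-identical copies, fell by 2.09 (length-corrected log2 fold change -1.17) and 2.01 (length-corrected log2 fold change -1.07). The summed levels were 816 to 954 against 1043 to 1113 CPM for endothelial and 450 to 671 against 207.5 to 272 CPM for erythroid markers. Of 14 bile duct markers 6 rose and 1 fell, with summed levels of 70.3 to 86.5 against 90.4 to 217 CPM. Of 9 neutrophil markers 1 rose and 0 fell (2 rose in the length-corrected fit, 0 rose and 1 fell without replicate 1 at 4 weeks), with summed levels of 14.6 to 45.7 against 9.13 to 182 CPM. The one called, Lcn2, an acute phase lipocalin, had 4.43, 29.4 and 13.2 CPM against 116, 72.8, 5.15 and 166 CPM (log2 fold change 2.52, adjusted p = 0.0451), with groups that overlapped and a call that ended without any 1 liver other than replicate 3 at 8 weeks. The part of these cells in the results on other lists was not tested. With thinned 8-week counts 1 lymphocyte marker fell, and without replicate 2 or 3 of either age 5 fell. Among Kupffer cell and macrophage markers the fit of 22 libraries called 1 higher and 5 lower, among lymphocyte markers 0 and 1, among endothelial markers 6 and 1, among erythroid markers 1 and 5, among bile duct markers 3 and 1 and among neutrophil markers 0 and 0.

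Of 33 matrix genes 18 rose and 2 fell (11 and 2 in the length-corrected fit, 11 and 1 in the fit of 22 libraries). Col1a1, the alpha 1 chain of type I collagen, had 3.28, 5.31 and 3.67 CPM against 39.4, 18.8, 26.6 and 21.2 CPM (log2 fold change 2.71, SE 0.33, adjusted p = 8.26e-05). Col6a3 and Fn1, a type VI collagen chain and fibronectin, rose by 2.48 (1.76 after length correction) and 1.41 (0.71 after length correction). Col3a1 did not pass (40.9, 62.4 and 69.8 against 98.7, 62.6, 84.25 and 73.0 CPM, log2 fold change 0.47, adjusted p = 0.073), and elastin (Eln) and the protease Mmp2 fell by 1.11 and 0.79. At 20 months Col1a1 was at 1.97 to 2.86 CPM, below the 4-week range, and the mean log2 CPM over the list was 3.24 to 3.35 in the 4-week, 3.81 to 4.17 in the 8-week and 2.49 to 3.15 in the 20-month livers. The libraries with the tag of the 8-week set were the high ones, and its part was not tested. Of 22 stellate cell and fibroblast markers 9 rose and 4 fell (6 and 2 in the length-corrected fit), with summed levels of 708 to 848 against 657 to 844 CPM. Among stellate cell and fibroblast markers the fit of 22 libraries called 5 higher and 1 lower.

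Nearly all genes of the ribosome and the respiratory chain were lower at 8 weeks. Of 78 cytosolic ribosomal protein genes 76 fell and 0 rose (median -1.62; 70 fell and 1 rose in the length-corrected fit), for example Rpl30 (261, 284 and 297 against 52.8, 54.1, 55.4 and 61.1 CPM, log2 fold change -2.32, SE 0.09, adjusted p = 2.02e-07). Of 74 nuclear genes of the respiratory chain 67 fell and 0 rose (median -1.17), among them Cox5b (224, 211 and 220.4 against 55.2, 53.6, 56.3 and 52.9 CPM, log2 fold change -2.0, SE 0.08, adjusted p = 2.1e-07; -1.40 after length correction). The length-corrected fit called 50 of them lower and 1 higher. Their median exonic length was 1696.5 bases and that of the ribosomal protein genes 1775.5, against 4499 over all protein-coding genes tested. Many genes of both lists have processed pseudogenes of near-identical sequence. How reads that fit both a gene and such a copy were counted is not known. The mean log2 CPM over the ribosomal protein genes was 6.26 to 6.47 in the 4-week, 4.70 to 4.83 in the 8-week and 4.93 to 5.25 in the 20-month livers, so that the single-end wild-type libraries of both tags lay below the paired-end ones. Processed pseudogenes had 1.26 to 1.27 in the 4-week, 0.16 to 0.22 in the 8-week and 0.02 to 0.12 in the 20-month livers (132 of 206 lower at 8 weeks, median -2.60). For the respiratory chain the values were 7.0 to 7.14, 5.82 to 5.92 and 6.35 to 7.16, so that the livers at 20 months lay between or beside the 2 groups. The part of the read layout was not tested.

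**Figure D4:**
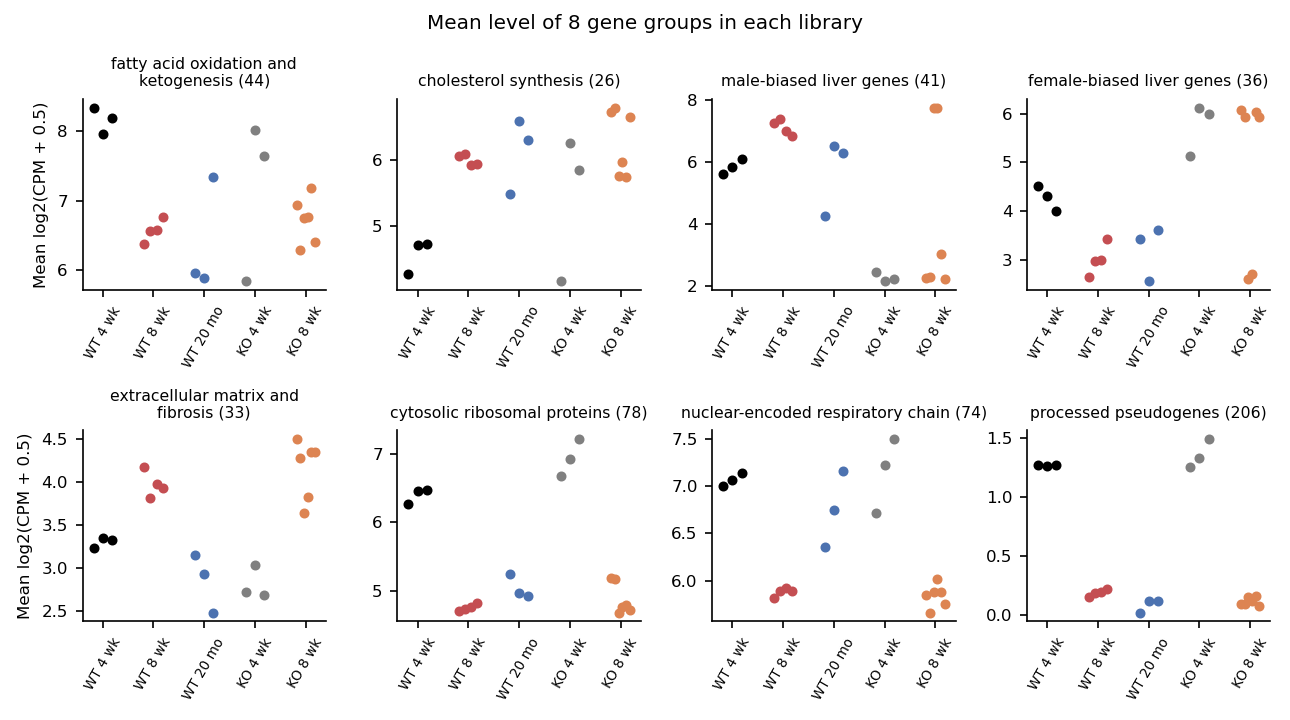
Mean log2(CPM + 0.5) over the tested members (y axis) of 8 gene groups (1 panel each, number of genes in parentheses) in every library of 5 groups, with wild types at 4 weeks (black), 8 weeks (red) and 20 months (blue) and knockouts at 4 weeks (grey) and 8 weeks (orange). Ribosomal proteins and processed pseudogenes are high in the paired-end 4-week libraries of both genotypes and lower in the single-end libraries drawn, matrix genes are high in the 8-week libraries, and fatty acid oxidation in the wild types is at 7.95 to 8.34 at 4 weeks and 6.38 to 6.76 at 8 weeks.

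Some of the 15 largest rises and falls were of genes with copies elsewhere in the genome or of genes high in 1 set of libraries. Of the mitochondrially encoded genes, which have nuclear copies, mt-Co3 had 63.8, 70.3 and 60.2 CPM against 1.14, 0.989, 1.52 and 1.11 CPM (log2 fold change -5.76), and mt-Atp6 and mt-Co2 fell by 4.57 and 3.8, with length-corrected log2 fold changes of -4.81, -3.56 and -2.80, whereas mt-Co1, at 28031, 25555 and 24843 CPM at 4 weeks, fell by 1.09. In the length-corrected fit mt-Co1 had a log2 fold change of -0.48 (adjusted p = 0.0107). There mt-Nd1, mt-Nd2, mt-Nd4, mt-Cytb and mt-Atp8 lost their calls (adjusted p = 0.37, 0.421, 0.126, 0.603 and 0.161). These were named after their values were seen, and the other mitochondrial genes that fell stayed lower. Of the 13 such genes tested 11 fell and 1 rose without the length correction. The one that rose was mt-Nd5, and mt-Nd6 did not pass; both were named after their values were seen (log2 fold change 0.31, adjusted p = 0.0418, and 0.22, adjusted p = 0.134; length-corrected fit 0.83, adjusted p = 0.000342, and 1.35, adjusted p = 4.23e-05). The ribosomal protein genes Rps23 and Rpl11 and the ferritin copy Ftl1-ps1 fell by 5.37, 3.29 and 3.61 (length-corrected log2 fold changes -4.67, -3.02 and -2.88). Lars2, the mitochondrial leucyl-tRNA synthetase, had 183, 191 and 224 CPM against 4062, 4340, 5471 and 5399 CPM (log2 fold change 4.60, SE 0.17, adjusted p = 2.02e-07; 3.94 after length correction), with 87.7 to 119 CPM in wild types at 20 months and 2726 to 4624 CPM in knockouts at 8 weeks, so that every 8-week library of both genotypes was high. Klhl11 and Srcap, at most 10.1 and 8.4 CPM in the wild types at 8 weeks, were likewise at 5.77 to 9.71 and 6.73 to 8.98 CPM in knockouts at 8 weeks and at 0.839 to 1.17 and 1.18 to 2.02 CPM in wild types at 20 months.

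Clock and feeding-sensitive genes differed among the livers of the 4-week group. Arntl, the core clock activator, had 41.4, 5.14 and 3.03 CPM at 4 weeks and 1.48, 1.38, 1.47 and 2.58 CPM at 8 weeks (log2 fold change -3.21, SE 0.74, adjusted p = 0.00452), and Dbp, a clock output gene in opposite phase, 0.578, 24.4 and 46.8 CPM against 49.9, 47.9, 64.1 and 38.8 CPM (log2 fold change 1.05, not passing, adjusted p = 0.191). Replicate 1 at 4 weeks was the highest library for Arntl and the lowest for Dbp. Of 21 clock genes 7 rose and 3 fell, and 3 rose in the length-corrected fit. Per3 had 3.28, 24.3 and 23.9 CPM against 48.8, 66.7, 66.6 and 56.7 CPM (log2 fold change 1.78, SE 0.43, adjusted p = 0.00549). The same liver was also the highest for Cyp4a14, Ehhadh, Apoa4, Insig2 and Cdkn1a and the lowest for Sqle, Idi1 and Thrsp. Without that liver 40 fatty acid oxidation genes fell and 21 cholesterol synthesis genes rose. Of 25 immediate early and heat shock genes 9 fell and 0 rose (6 and 3 in the length-corrected fit, 8 and 1 without replicate 1 at 4 weeks). Hsph1, a heat shock protein, had 253, 140.1 and 147 CPM against 41.1, 58.8, 57.2 and 59.1 CPM (log2 fold change -1.73 with SE 0.21, adjusted p = 7.62e-05), and Fos did not pass (log2 fold change -0.14, adjusted p = 0.808). The hour of collection and the feeding state are not in the labels, and their part was not tested. Without replicate 2, 3 or 4 at 8 weeks 3, 3 and 4 clock genes rose. Among clock genes the fit of 22 libraries called 0 higher and 2 lower and among immediate early and heat shock genes 0 and 4.

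Of 40 interferon response genes 5 rose and 7 fell, and of 24 antigen presentation genes 3 rose and 5 fell, shares below the background in either direction. In the length-corrected fit 4 interferon and 3 antigen presentation genes fell. Irf7, a regulator of the interferon response, did not pass (log2 fold change -0.33, adjusted p = 0.0678), nor did the class II gene H2-Aa (18.7, 21.6 and 16.8 against 50.8, 9.98, 16.4 and 13.9 CPM, adjusted p = 0.668), whose highest value was that of replicate 1 at 8 weeks. B2m, the light chain of class I molecules, fell by 0.55, and the length-corrected fit gave the opposite sign (0.35, adjusted p = 0.0696). Of 27 genes of the endoplasmic reticulum stress response 5 rose and 9 fell, and the stress factor Ddit3 and the secreted factor Manf fell by 1.68 and 1.44; in the length-corrected fit 6 rose and 4 fell, and without replicate 1 at 4 weeks 9 rose and 9 fell. Of 30 iron and heme genes 5 rose and 9 fell, and the ferritin light chain Ftl1, which has many pseudogene copies, fell by 1.49 (length-corrected log2 fold change -0.81). Of 16 thyroid hormone responsive genes 6 rose and 2 fell, with Cyp7a1 and Thrb among the former and Fgf21 among the latter. Among interferon response genes the fit of 22 libraries called 2 higher and 1 lower, among antigen presentation genes 3 and 3, among endoplasmic reticulum stress genes 3 and 5 and among iron and heme genes 2 and 4.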

How the data were processed

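PolyA RNA of mouse liver was sequenced on an Illumina HiSeq, per the labels' protocols. The submitters' processing notes name GRCm38, HISAT2 2.0.4 and HTSeq 0.6.1p1; strand setting and annotation release are not given in the sources used here. The deposited values are raw counts per Ensembl gene, and the summary lines of each table (no feature, ambiguous and others) were kept out of totals. Groups came from the sample titles. Genes passing filterByExpr were scaled by TMM and tested with edgeR 4.0.16 (quasi-likelihood, 2-sided, Benjamini-Hochberg over all genes tested, threshold 0.05; R 4.3.3), with DESeq2 1.42.0 as an alternative. CPM are TMM-scaled over the 22 libraries. Gene names, positions and exonic lengths came from a GRCm38 gene annotation. The members, the 42 gene lists and the tests were chosen with earlier results of these data known. Genes were named from a panel of 52, from the 15 largest rises and falls among protein-coding genes whose groups did not overlap and whose mean log2 CPM reached 1, and from the 3 smallest adjusted p in each direction of each list (all called members where 5 or fewer were called); others are marked as named after their values were seen. A few genes that the rule names are not reported here. On simulated counts for this comparison with 13675 genes, 67 of 100 genes changed 2-fold and 86 of 100 changed 4-fold were recovered, with 9 false calls. Only 200 genes were changed in it, evenly in both directions and without a length trend, whereas 53.2% of genes were called here. Its recovery and false calls therefore need not hold for these data. No 2 libraries of a group differed by as little as sampling noise.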

Additional observations from a re-analysis of the deposited data

Results flagged for a closer look

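In the 4 wild-type livers at 8 weeks, 12 of the 182 genes named with values had 1 library whose gap to its nearest neighbour took up more of the group's range than Dixon's critical value for 4 samples, which chance exceeds in about 5% of groups. The share flagged here was not far above that, and the genes are not independent of each other. Replicate 4 was the library apart for 8 of the 12 genes. It was highest for Igfbp1 (268 CPM, others 58.5 to 68.8), Cdkn1a (8.48 CPM, others 2.70 to 3.51), Arntl (2.58 CPM, others 1.38 to 1.48), Clec4g (42.2 CPM, others 31.6 to 32.7) and Peg3 (14.9 CPM, others 11.1 to 11.6). The same library was lowest for Aox3 (612 CPM, others 944 to 998), Cyp2f2 (630.4 CPM, others 794 to 823) and Cyp3a44 (16.6 CPM, others 20.9 to 21.3). Replicate 1 was highest for H2-Aa (50.8 CPM, others 9.98 to 16.4) and lowest for Gsto1 (51.5 CPM, others 62.8 to 64.3) and Hsph1 (41.1 CPM, others 57.2 to 59.1). Replicate 3 was highest for Ghr (712 CPM, others 642 to 650.3). The group of 3 livers at 4 weeks is too small for this measure.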

How the results depend on the processing

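Under DESeq2 size factors, the DESeq2 test, no low-count filter, thinning to the 4-week depth, the length and GC corrections (the GC correction was chosen after seeing the data), removal of the 50 most abundant genes and each left-out liver, the counts of genes higher and lower stayed within 1.5 times of 3850 and 3599 (2594 and 2645 in the fit of 22 libraries). Over the left-out livers they ranged from 3296 to 3886 and from 3203 to 3596. The exception was the 3316 protein-coding genes higher, which were 2102 in the fit of 22 libraries; the cause was not tested. In that fit 52 of 182 named genes lost their call: A1bg, Abcb4, Agpat2, Alb, Atp6v0d2, B2m, C6, Car3, Ccnd1, Cd36, Cd5l, Clec4f, Cps1, Cyp2a4, Cyp2d9, Cyp2f2, Cyp7b1, Dgat1, G6pc, Ghr, Glul, Gstk1, H19, Hamp2, Hmgcs1, Hsd17b6, Igf1, Igfbp1, Igfbp3, Keg1, Khk, Lcn2, Mmp2, Moxd1, Mup2, Mup3, Mup4, Mup8, Mup9, Mup11, Mup16, Mup18, Nr0b2, Ntrk2, Pck1, Per3, Ppara, Slc10a1, Sult1e1, Susd4, Thrsp and Ugt1a1. In the same fit 59 of the 84 counts of list members moved by more than 1.5 times, all of them downward. Among named genes that were called, the length correction reversed the log2 fold changes of Agpat2 (0.089, adjusted p = 0.552), B2m (0.35, adjusted p = 0.0696), Igf1 (-0.0396, adjusted p = 0.837) and Mup3 (0.37, adjusted p = 0.0365). Genes not called, such as Mki67 and Col3a1, also changed sign with it. Leaving out replicate 1 at 4 weeks reversed the log2 fold change of Cyp3a11 (1.56, adjusted p = 5.92e-05). Without 1 liver each, the values of Cyp3a11 ranged from -0.978 to 1.56. Hamp and Mup20, not called with edgeR, were called by the DESeq2 test (adjusted p = 0.0248 and 0.025). Other calls appeared when 1 liver was left out. Mup20 was called without replicate 3 or 4 at 8 weeks and Irf7 without replicate 1 at 4 weeks. Col3a1 was called without replicate 3 at 4 weeks or replicate 2 at 8 weeks. Afp, Hamp and Dbp were called without replicate 1, 2 and 3 at 4 weeks, respectively. The replicate numbers did not pair livers (correlations of same-numbered deviations -0.01, -0.0024 and 0.02). With the replicate block 3519 genes were higher and 3230 lower (protein-coding 3059 and 2947), and Agpat2, Atp6v0d2, Hamp2, Lcn2 and Ntrk2 lost their calls while Mup20 gained one. The 4-week libraries were the shallower ones, and thinning the 8-week counts to their mean total of 6385432 left 3234 genes higher and 3226 lower.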
